A study of Rattus norvegicus with 2 samples.

Results

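Circular RNAs (circRNAs) of genes for the nuclear pore and for nuclear transport were examined in rats with bone cancer pain and in controls. CircRNAs are RNA rings made by back-splicing, the joining of an exon's end to the start of the same or an earlier exon. They are counted by reads across that back-splice junction and named after the gene they come from, the host gene. The members were chosen by gene symbol: host genes whose symbol begins with NUP and a digit, XPO, IPO and a digit, TNPO, KPNA, KPNB, RANBP or RANGAP, and TPR, AHCTF1, SEH1L and AAAS, where the table gives 1 host name. This gave 215 circRNAs of 45 host genes, out of 17260 circRNAs and 4991 host genes named alone. They were split by role into 21 pore genes, 20 carrier genes and 4 partners of the GTPase RAN. The rule itself uses no measured value, but members and classes were chosen with earlier results of these data known.

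Rats of the bone cancer pain group were injected in the marrow cavity of the tibia with live cells of Walker256, a carcinoma line of rat mammary origin that had been grown as ascites in SD rats. Control rats had the same operation with Walker256 cells boiled for 20 minutes. Each group had 3 animals, killed 21 days after surgery, and whether their RNA was pooled is not stated. The labels name the RNA source in 2 conflicting ways, cancer cells and spinal cord cells. Each group had a single library, so no test between conditions was possible and each ratio compares 2 libraries. All intervals are exact, at 95%, and cover counting error only.

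Traffic between nucleus and cytoplasm runs through nuclear pore complexes, large rings of nucleoporins set in the nuclear envelope. A Y-shaped complex and an inner ring form the scaffold, nucleoporins rich in phenylalanine and glycine fill the channel, and a basket and filaments extend into the nucleus and the cytoplasm. Importins and exportins carry cargo through the channel, and the GTPase RAN, loaded with GTP in the nucleus, makes importins release their cargo and exportins bind theirs. A circRNA of such a gene measures neither its linear mRNA nor its protein.

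The bone cancer pain library held 151685 circular junction reads and the control library 159941. The deposited values were taken as RPM, scaled to all junction reads of a library, and turned back into reads, and the lowest listed value was 2 reads. A circRNA not listed for a library may therefore have had 1 read there, so no ratio is given against a library in which a gene is not listed. The table carries human gene symbols, human circBase identifiers and positions without a named build or strand, although the labels give rat. Cell type markers were looked up only among circRNAs with 1 host name. Defining markers of the labelled spinal cord were nearly absent there. None of 10 neuronal, 4 astrocyte and 4 microglial markers had such a circRNA. Of 6 oligodendrocyte markers only MBP did, with 3 bone cancer pain and 2 control reads. Of 6 carcinoma markers only ERBB2 did, with 35 bone cancer pain and 36 control reads. Absence of a circRNA does not show absence of the mRNA, and the source of the RNA was not tested.

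Together the members held 2093 bone cancer pain reads, or 1.38% of that library (interval 1.32 to 1.44), and 2451 control reads, or 1.53% (1.47 to 1.59). The ratio of bone cancer pain to control was 0.900 (0.849 to 0.955). Without XPO1, the member with the most reads, they had 1324 bone cancer pain and 1352 control reads, at a ratio of 1.03 (0.957 to 1.11).

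The pore genes had 354 bone cancer pain and 371 control reads, with a ratio of 1.01 (0.867 to 1.17). The carrier genes held most of the reads, 1540 bone cancer pain and 1895 control reads, with a ratio of 0.857 (0.801 to 0.917). Without XPO1, the carriers were at 771 and 796 reads, and the ratio was 1.02 (0.924 to 1.13). The RAN partners had 199 bone cancer pain and 185 control reads (1.13, 0.924 to 1.39). The intervals of the pore and carrier ratios overlapped, and the difference between them was not tested.

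Of the 45 member host genes, 32 had 10 or more reads over both libraries. A host gene was called by size where its ratio was at least 2 or at most 0.5, with 0.5 reads added to each library. By this measure 3 of the 32 (9.38%) were higher in the bone cancer pain library, where 13.3% of all 3036 host genes with 10 or more reads were, and 4 (12.5%) were lower, against 14.2% of all. The other 25 lay between. The members' shares were thus near those of the whole table. The 3 higher were NUP50, NUP133 and KPNA3, and the 4 lower were TPR, NUP43, NUP35 and IPO11.

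**Figure D1:**
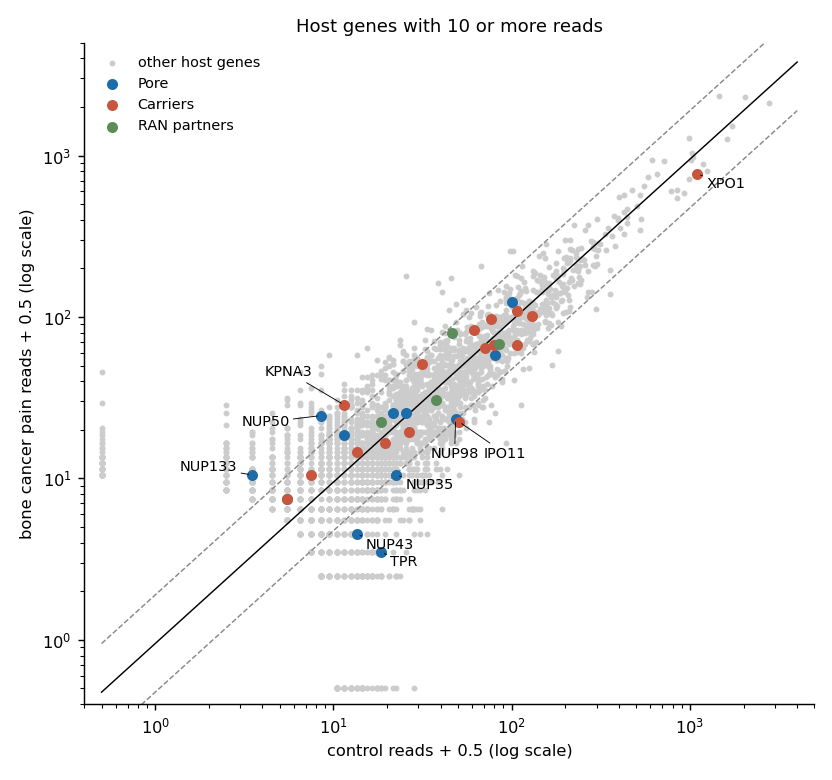
Bone cancer pain reads against control reads, both on log axes with 0.5 reads added, for the host genes with 10 or more reads. Grey points are the other host genes and coloured points the 32 members. The solid line marks equal shares of the 2 libraries and the dashed lines a 2-fold difference. XPO1 sits far above the other members in reads, and 7 members lie beyond the dashed lines.

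By counting error alone, the interval of the ratio lay above 1 for 5 of the 32 members, where 14.1% of all host genes did, and below 1 for another 5, against 15.4% of all. The 5 above were NUP50, KPNA3, KPNA5, XPO5 and RANBP9. The 5 below were TPR, NUP98, IPO11, TNPO3 and XPO1. The median log2 ratio was 0.20 over 12 pore genes and 0.03 over 16 carrier genes, beside -0.03 over all host genes. The 12 pore genes covered the widest range of the classes, from -2.33 for TPR up to 1.66 for NUP133. They also had the fewest reads, a median of 13 over all 21 listed pore genes, beside 58.5 for carriers and 96 for RAN partners. Whether their range exceeds counting error was not tested.

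Among the scaffold genes of the Y complex, reads were few. NUP107 had 25 bone cancer pain and 25 control reads on 6 circRNAs (ratio 1.05, 0.581 to 1.91). A further junction whose gene field names small RNAs beside NUP107 had 13 control reads and no bone cancer pain reads listed, and with it the ratio was 0.694 (0.401 to 1.18). NUP133 had 10 bone cancer pain and 3 control reads (3.51, 0.905 to 19.9). Of its 4 circRNAs only 1 was listed in both libraries, at 2 bone cancer pain and 3 control reads, so its place among the higher genes rests on junctions that the control did not list. NUP43 had 4 bone cancer pain and 13 control reads (0.324, 0.0771 to 1.05). Of these, 6 control reads were on hsa_circ_0001652, which the bone cancer pain library did not list. On the circRNA listed in both, hsa_circ_0078241, NUP43 had 4 bone cancer pain and 7 control reads, a log2 ratio of -0.66 with 0.5 reads added, which is no 2-fold call. NUP85 had 7 bone cancer pain and 5 control reads (1.48, 0.403 to 5.90). The summed ratio over the 8 listed Y complex genes, AHCTF1 and SEH1L among them, was 1.05 (0.707 to 1.57).

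In the inner ring, NUP155 had 25 bone cancer pain and 21 control reads (1.26, 0.675 to 2.36), spread over 8 circRNAs of which none exceeded 10 reads in total. NUP205 had 18 bone cancer pain and 11 control reads (1.73, 0.772 to 4.04). With a junction that names small RNAs beside NUP205, the control also had 18. NUP35, a small subunit of the ring, had 10 bone cancer pain and 22 control reads (0.479, 0.203 to 1.05). Both of its circRNAs start at the same position, chr2:183993015, and the shorter, hsa_circ_0004820, had 4 bone cancer pain and 13 control reads. Without it NUP35 had 6 and 9 (0.703, 0.206 to 2.21), which is no 2-fold call. The 5 inner ring genes together gave a ratio of 1.11 (0.759 to 1.62).

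The channel nucleoporins NUP54 and NUP98 were both lower in the bone cancer pain library in their point values. NUP54, part of the central channel, had 58 bone cancer pain and 80 control reads (0.764, 0.536 to 1.09). All of its bone cancer pain reads were on 4 circRNAs that end at chr4:77065626, and the most abundant, hsa_circ_0070039, had 29 bone cancer pain and 51 control reads (0.600, 0.366 to 0.964). Without that form NUP54 had 29 bone cancer pain and 29 control reads (1.05, 0.608 to 1.83), so it was lower only through its dominant form. NUP98, a mobile nucleoporin known as a fusion partner in leukaemia, had 23 bone cancer pain and 48 control reads (0.505, 0.293 to 0.847), just short of a 2-fold call. It passed 2-fold with scaling by the median of ratios, at a log2 ratio of -1.05, and with circBase identifiers only, at -1.04. The log2 ratio was nearer to no difference, at -0.90, with only circRNAs listed in both libraries. With a junction that names small RNAs beside NUP98 it was -0.74. Without hsa_circ_0004960, its most abundant form, NUP98 had 21 bone cancer pain and 33 control reads (0.671, 0.369 to 1.19). Its hsa_circ_0004960 had 2 bone cancer pain and 15 control reads (0.141, 0.0156 to 0.605), while hsa_circ_0000274, elsewhere in the gene, had 9 and 5 (1.90, 0.571 to 7.21). The 2 channel genes summed to 81 bone cancer pain and 128 control reads, a ratio of 0.667 (0.499 to 0.888).

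The basket genes went different ways. NUP153, which anchors the basket, had the most reads of the pore genes, 124 in the bone cancer pain and 100 in the control library (1.31, 0.997 to 1.72), on 17 circRNAs. Every one of these 17 shared an end with another. Its most abundant form in the sum of both libraries, hsa_circ_0003576, had 24 bone cancer pain and 21 control reads, and hsa_circ_0002492 had 29 and 15 (2.04, 1.06 to 4.09). NUP50, a cofactor that helps release cargo from importin alpha, had 24 bone cancer pain and 8 control reads (3.16, 1.37 to 8.15), all on hsa_circ_0002077. TPR, which builds the basket filaments, had 3 bone cancer pain and 18 control reads (0.176, 0.0332 to 0.602), on 2 junctions without a circBase identifier. One of them, at chr1:186287579-186287960, had 3 bone cancer pain and 12 control reads, and the other had 6 control reads and no bone cancer pain reads listed. NUP50 was thus among the highest members and TPR the lowest, while the sum over the 3 basket genes was at 1.26 (0.991 to 1.61).

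**Figure D2:**
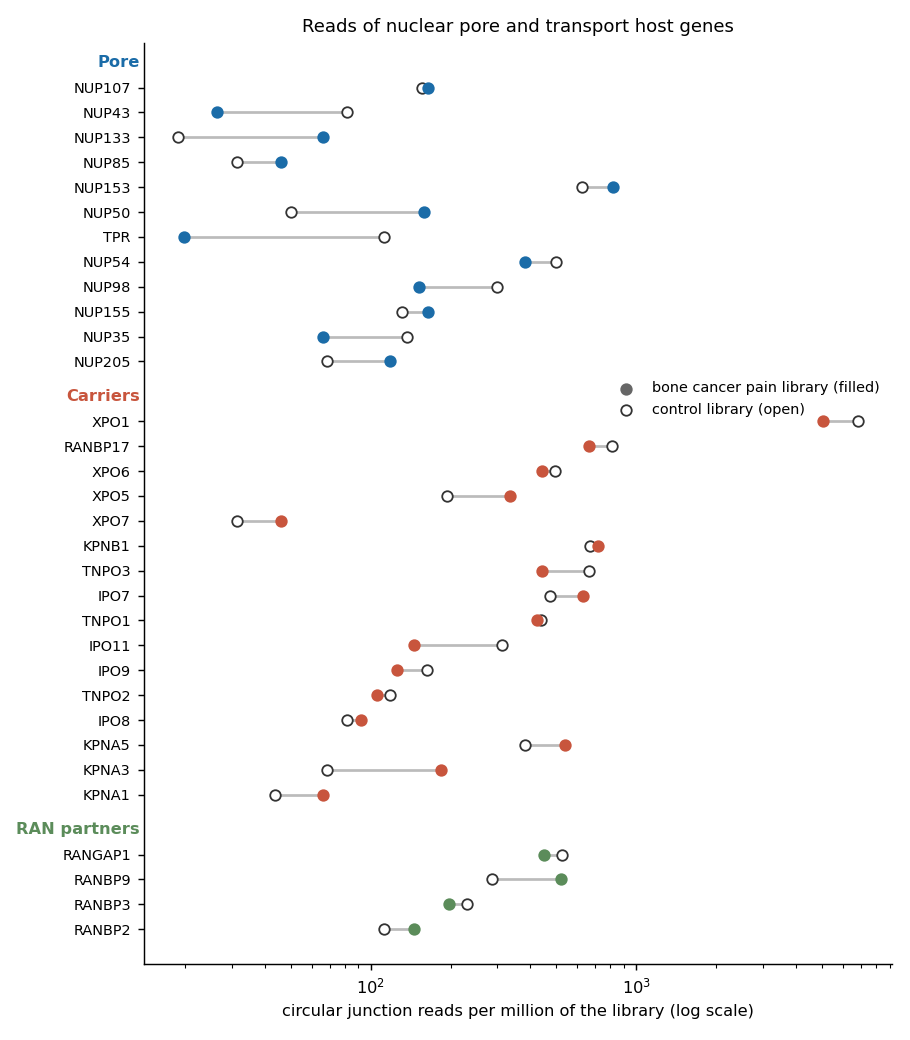
Circular junction reads in RPM, scaled to the junction reads of the library (log axis), for the 32 member host genes with 10 or more reads, by class. Filled points are the bone cancer pain library and open points the control library, 1 library each. XPO1 stands at 5070 RPM in the bone cancer pain library and 6871 RPM in the control, and the widest gaps are those of TPR, NUP133, NUP50 and NUP43.

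The genes of the cytoplasmic side had very few reads. NUP88 had 7 bone cancer pain reads and none listed in the control, NUP214 had 2 bone cancer pain and 5 control reads, and AAAS, mutated in triple A syndrome, had 2 control reads and no bone cancer pain reads listed. In all, 13 members had fewer than 10 reads. Beside NUP88, those listed for the bone cancer pain library only were KPNA4 with 7 reads, IPO5 and NUP160 with 5 each, XPO4 with 3, and NUP37 and NUP188 with 2 each. Beside AAAS, those listed for the control only were SEH1L with 4 reads and AHCTF1, which recruits the pore scaffold to chromatin, with 3. NUP93 had 5 bone cancer pain and 3 control reads, and KPNA6 had 3 and 5. None of the 13 reached the 10 reads needed for a call on junctions named for them alone. With a junction that names small RNAs beside it, KPNA6 had 10 bone cancer pain and 5 control reads (2.11, 0.657 to 7.86). With such junctions NUP160 had 7 and 2.

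XPO1, the exportin that carries proteins with a leucine-rich export signal, had 769 bone cancer pain and 1099 control reads (0.738, 0.672 to 0.810). It ranked at place 12 of all 4991 host genes by reads. Most of these reads were on 2 circRNAs that start at the same position. The longer, hsa_circ_0001017 (chr2:61749746-61761038), had 404 bone cancer pain and 687 control reads (0.620, 0.547 to 0.702). The shorter, hsa_circ_0001016 (chr2:61749746-61753656), had 263 bone cancer pain and 336 control reads (0.825, 0.700 to 0.973). Both intervals lay below 1, that of the longer form lower and just touching that of the shorter.

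The other 16 XPO1 circRNAs had 102 bone cancer pain and 76 control reads in sum (1.42, 1.04 to 1.93). The 2 dominant forms thus took 86.7% of XPO1 reads in the bone cancer pain library (84.1 to 89.1) and 93.1% in the control (91.4 to 94.5). Among the others, hsa_circ_0002607 had 33 bone cancer pain and 22 control reads (1.58, 0.895 to 2.85), and hsa_circ_0005050, which ends at the same position, had 23 and 25 (0.970, 0.526 to 1.78). This split was made after the values had been seen. Without hsa_circ_0001017, XPO1 as a whole stood at 365 bone cancer pain and 412 control reads (0.934, 0.809 to 1.08).

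RANBP17, a member of the importin beta family related to XPO7, had 101 bone cancer pain and 130 control reads (0.819, 0.625 to 1.07), and its circRNAs fell into 2 stretches of the gene that differed in opposite ways. The 5 circRNAs between chr5:170305101 and 170351554 had 57 bone cancer pain and 32 control reads (1.88, 1.20 to 2.99). Each of these 5 had more reads in the bone cancer pain library, among them hsa_circ_0001554 with 23 and 15 and hsa_circ_0002257 with 19 and 10. The 3 circRNAs that end at chr5:170632616, with 259 kb between them and the first stretch, had 44 bone cancer pain and 98 control reads (0.473, 0.324 to 0.682). The first stretch made up 56.4% of RANBP17 reads in the bone cancer pain library (46.2 to 66.3) and 24.6% in the control (17.5 to 32.9). The stretches were told apart after the values had been seen.

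The successive starts of the 3 distal RANBP17 circRNAs lie 28 bp and 4 bp apart. Of these, hsa_circ_0003718 had 24 bone cancer pain and 66 control reads (0.383, 0.230 to 0.620), hsa_circ_0002713 had 18 and 27 (0.703, 0.365 to 1.32), and hsa_circ_0074990 had 2 and 5. All 3 had fewer reads in the bone cancer pain library.

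**Figure D3:**
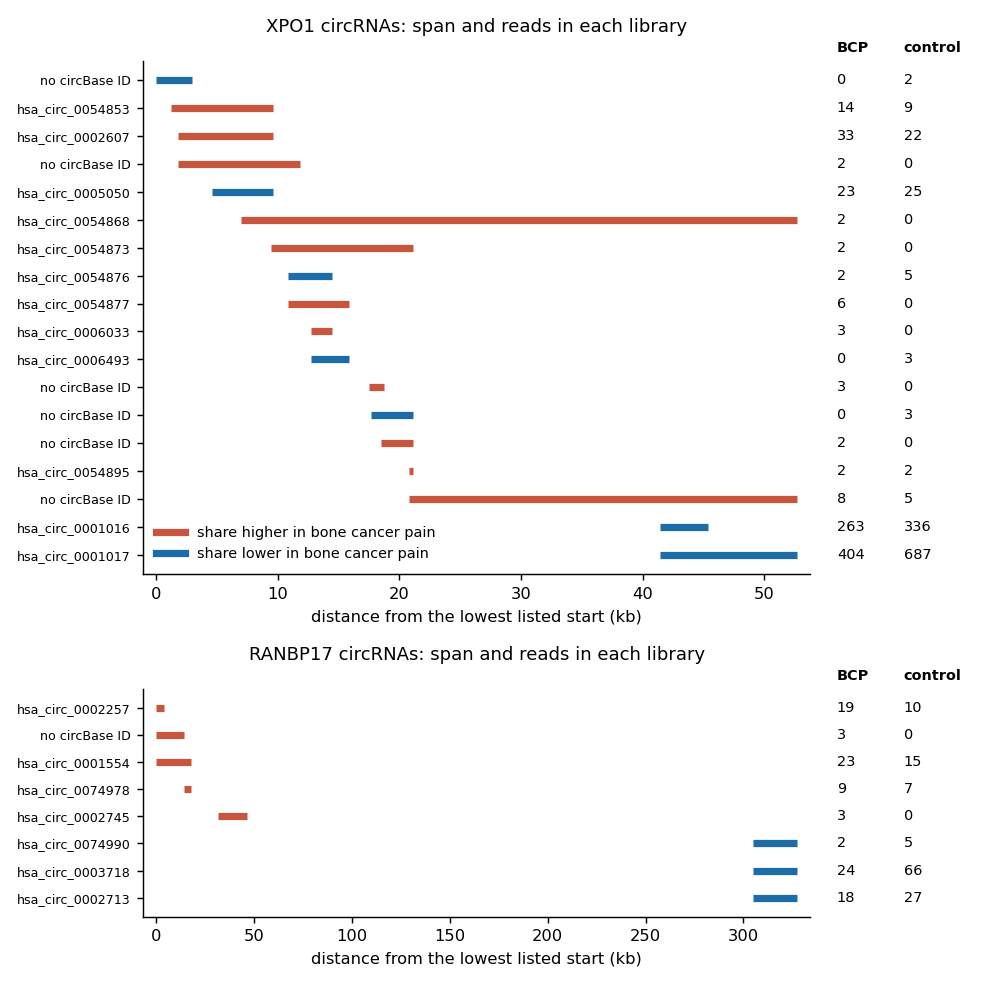
Span of each listed circRNA of XPO1 and RANBP17, in kb from the lowest listed start of the gene, with its reads in the bone cancer pain library (BCP) and the control to the right. Red bars had a higher share of the bone cancer pain library and blue bars a lower one, by the ratio with 0.5 reads added. The 2 dominant XPO1 forms are blue, and the RANBP17 bars are red in the first stretch and blue in the distal one.

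The other exportins had fewer reads. XPO5, which exports microRNA precursor hairpins, had 51 bone cancer pain and 31 control reads (1.73, 1.09 to 2.80) on 13 circRNAs. Its most abundant form, hsa_circ_0076560, had 18 bone cancer pain and 10 control reads, and 6 forms had only bone cancer pain reads, 2 to 4 each. With only control reads were hsa_circ_0006926, at 3, and the junction at chr6:43538239-43538731, at 2. The log2 ratio of XPO5 was 0.79, and 0.46 with only circRNAs listed in both libraries. XPO6, which exports actin, had 67 bone cancer pain and 79 control reads (0.894, 0.636 to 1.25). XPO7 had 7 bone cancer pain and 5 control reads (1.48, 0.403 to 5.90). XPO4, XPO5, XPO6 and XPO7 together had 128 bone cancer pain and 115 control reads (1.17, 0.905 to 1.52). With RANBP17 added, the sum without XPO1 was on the other side of 1, at 0.986 (0.819 to 1.18), and both intervals include 1.

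Of the import receptors, KPNB1, importin beta, had 109 bone cancer pain and 107 control reads (1.07, 0.815 to 1.42). Its 3 main forms, hsa_circ_0000779, hsa_circ_0000780 and hsa_circ_0002854, had 27, 25 and 24 bone cancer pain reads, against 33, 25 and 36 control reads. A shorter form starting at the same position as the first of these, hsa_circ_0044301, had 11 bone cancer pain and 2 control reads (5.80, 1.27 to 53.8). TNPO1, a transportin that imports RNA-binding proteins, had 64 bone cancer pain and 70 control reads (0.964, 0.676 to 1.37). Within it, hsa_circ_0006621 had 12 bone cancer pain reads and none listed in the control.

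TNPO3, which imports splicing factors of the SR family, had 67 bone cancer pain and 106 control reads (0.666, 0.483 to 0.913). Nearly all were on hsa_circ_0001741 (chr7:128655033-128658211), with 56 bone cancer pain and 104 control reads (0.568, 0.403 to 0.793). The remaining 3 forms had 11 bone cancer pain and 2 control reads (5.80, 1.27 to 53.8). With 92.5% of TNPO3 reads on its dominant form, the ratio of the gene largely follows that form.

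IPO11, an import receptor for ubiquitin-conjugating enzymes, had 22 bone cancer pain and 50 control reads (0.464, 0.268 to 0.780), the lowest ratio of the carriers with 10 or more reads. Its main form hsa_circ_0001491 had 14 bone cancer pain and 31 control reads (0.476, 0.234 to 0.922), and hsa_circ_0007915 had 3 and 13 (0.243, 0.0445 to 0.885). Both were lower, and without the main form IPO11 was at 8 bone cancer pain and 19 control reads (0.444, 0.168 to 1.06).

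IPO7, which imports ribosomal proteins, had 96 bone cancer pain and 76 control reads (1.33, 0.976 to 1.82), and its forms differed widely among themselves. The main form, hsa_circ_0005092, had 66 bone cancer pain and 49 control reads (1.42, 0.967 to 2.10). A longer form with the same start, hsa_circ_0003178, had 15 and 2 (7.91, 1.84 to 71.3). In contrast, hsa_circ_0004007 had 5 bone cancer pain and 16 control reads (0.330, 0.0944 to 0.941), and hsa_circ_0004857 had 9 control reads and no bone cancer pain reads listed. IPO9, a histone carrier, had 19 bone cancer pain and 26 control reads (0.771, 0.403 to 1.45). IPO8 had 14 and 13 (1.14, 0.495 to 2.62), and TNPO2, a close relative of TNPO1, had 16 and 19 (0.888, 0.427 to 1.82).

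Importin alphas, the adaptors that bind the classical nuclear localisation signal and hand it to importin beta, had 130 bone cancer pain and 84 control reads (1.63, 1.23 to 2.17) over 5 genes. KPNA3 had 28 bone cancer pain and 11 control reads (2.68, 1.30 to 5.97). Its 2 main forms end at the same position, and the short one, hsa_circ_0000485 (chr13:50280234-50280508), had 19 and 4 (5.01, 1.66 to 20.2). Without that form KPNA3 had 9 bone cancer pain and 7 control reads (1.36, 0.449 to 4.28), which ends its 2-fold call. KPNA5 had 82 bone cancer pain and 61 control reads (1.42, 1.01 to 2.01), most of them on a junction without a circBase identifier at chr6:117010483-117013555, with 62 and 40. KPNA1 had 10 bone cancer pain and 7 control reads (1.51, 0.518 to 4.66), and KPNA4 and KPNA6 are given above. The sum did not rest on KPNA5 alone, since the other 4 genes had 48 bone cancer pain and 23 control reads (2.20, 1.31 to 3.79). Of those reads, however, 19 bone cancer pain and 4 control reads were on hsa_circ_0000485 of KPNA3. Without its main junction, KPNA5 had 20 bone cancer pain and 21 control reads (1.00, 0.516 to 1.95). Junctions that name small RNAs beside KPNA6, KPNA1 and KPNA2 had 7 bone cancer pain reads, 3 control reads and 5 control reads, each listed in that library only, and KPNA2 had no other junction.

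**Figure D4:**
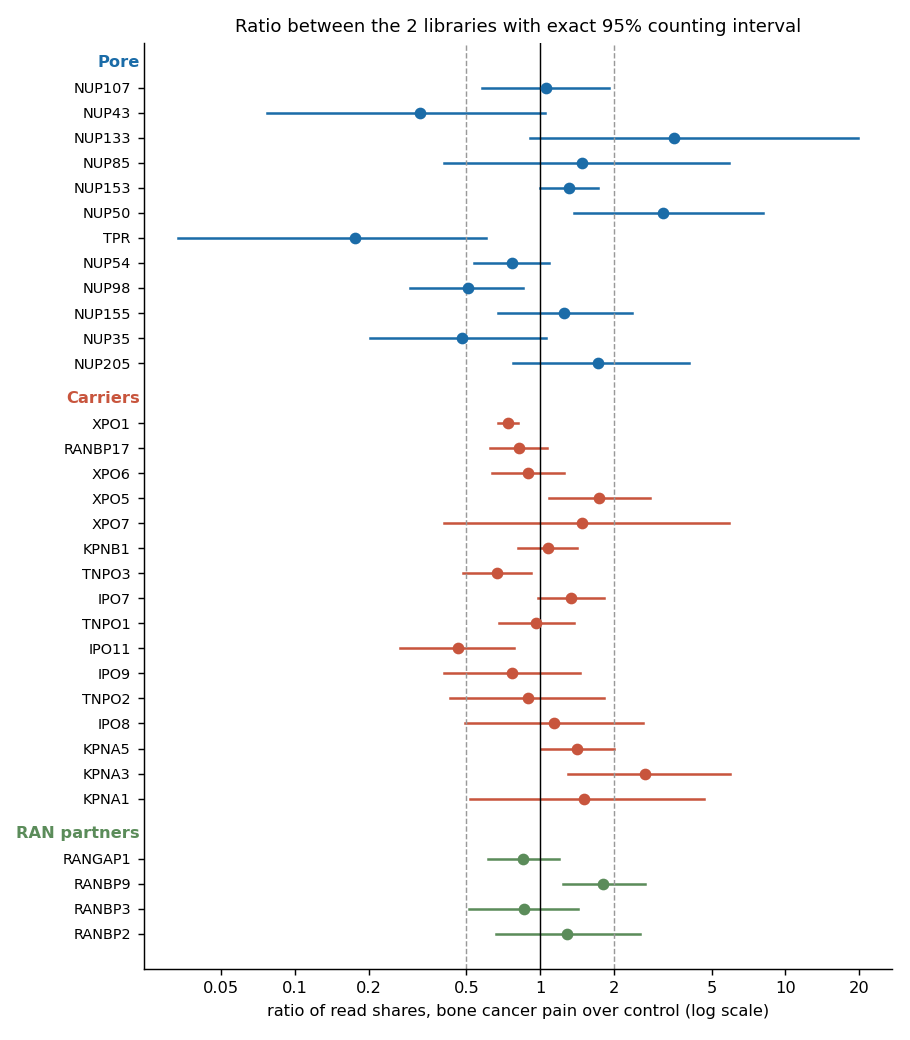
Ratio of read shares, bone cancer pain over control (log axis), with the exact 95% counting interval, for the 32 member host genes with 10 or more reads. The solid line marks 1 and the dashed lines 0.5 and 2. The interval of XPO1 is the narrowest, and 22 of the 32 intervals include 1.

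RANGAP1, which makes RAN hydrolyse its GTP on the cytoplasmic side of the pore, had 68 bone cancer pain and 84 control reads (0.854, 0.611 to 1.19). Its main form hsa_circ_0001235 had 31 bone cancer pain and 53 control reads (0.617, 0.383 to 0.979), and the form with the same end, hsa_circ_0063534, had 24 and 23 (1.10, 0.595 to 2.04). RANBP3, a cofactor of XPO1, had 30 bone cancer pain and 37 control reads (0.855, 0.510 to 1.42). RANBP9, which despite its name is best known as a scaffold of a ubiquitin ligase complex, had 79 bone cancer pain and 46 control reads (1.81, 1.24 to 2.66). Its main form, hsa_circ_0001577, had 46 and 25 (1.94, 1.17 to 3.30).

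RANBP2, the nucleoporin of the cytoplasmic filaments, had 22 bone cancer pain and 18 control reads (1.29, 0.660 to 2.55), all on hsa_circ_0006965. The human genome, whose symbols the table uses, holds near-identical RGPD copies of RANBP2, so these reads are uncertain. Counted with the pore genes, RANBP2 would put their median log2 ratio at 0.32.

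At the level of single circRNAs, 70 of the 215 had 10 or more reads. Of these 10 (14.3%) were higher by 2-fold or more in bone cancer pain, where 17.3% of all 5415 circRNAs with 10 or more reads were. Another 10 (14.3%) were at least 2-fold lower, against 17.0% of all. Beside those described above, the higher ones were an uncatalogued circRNA of IPO9 with 9 bone cancer pain and 2 control reads, hsa_circ_0066986 of KPNA1 with 8 and 3, hsa_circ_0007807 of XPO6 with 12 and 6, and hsa_circ_0075650 of RANBP9 with 12 and 4. The lower ones not yet given were an uncatalogued circRNA of NUP107, with 3 bone cancer pain and 11 control reads, and hsa_circ_0004146 and hsa_circ_0007401 of NUP98, with 3 and 8 each. By class, of 39 carrier circRNAs with 10 or more reads 7 were higher and 4 lower. Of 24 such pore circRNAs 2 were higher and 6 lower, and 3 of these 6 were of NUP98. The difference between the classes was not tested.

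The members were also described by measures that their choice did not use. They are set here beside the 15105 circRNAs of the table with 1 host gene. Of the 215 circRNAs, 91 (42.3%) were listed in both libraries, beside 43.9%. Another 73 were listed for the bone cancer pain library only, with 227 reads, and 51 for the control only, with 148 reads. In all, 65.1% carried a circBase identifier, beside 58.6%, and 71.2% shared an end with another circRNA of the same gene, beside 61.7%. Sharing an end needs more than 1 circRNA of a gene, so this share depends on the number per gene, given below. The median span was 5134 bp, beside 5804 bp. Of the 45 host genes 17 (37.8%) had 5 or more circRNAs, led by XPO1 with 18 and NUP153 with 17, beside 19.6% of all host genes. The median member had 32 reads over both libraries, and the median of all host genes was 15.

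In point values, forms of the same gene often differed in opposite ways. Of the 18 member genes with at least 2 circRNAs of 10 or more reads, 7 (38.9%) had 1 form at least 1.5-fold higher and another at least 1.5-fold lower, beside 311 of 1116 genes (27.9%) in the whole table. The 7 were IPO7, IPO9, NUP153, NUP54, NUP98, RANBP17 and XPO1. This count takes no account of counting error. Among their forms with 10 or more reads, only IPO7 had a higher and a lower form whose intervals both left out 1. The median gap between the highest and the lowest form was 1.47 on the log2 scale, and 1.49 in the whole table. Both this gap and the share of opposite pairs depend on the number of forms per gene. Members more often had 5 or more circRNAs, as given above, and the comparison was not matched for that number.

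In the rat gene table (assembly GRCr8), 63 protein-coding genes have symbols that fit the same rule, and 45 of them were listed as hosts. By class these were 21 of 28 pore genes, 20 of 27 carrier genes and 4 of 8 RAN partners. Rat symbols were matched to the human symbols of the circRNA table. A gene that goes by another symbol there counts as not listed, so these shares may be too low. Genes without a circRNA named for them alone included the channel nucleoporin NUP62, the membrane nucleoporin NUP210, the importins IPO4 and IPO13, the importin alpha KPNA2, and XPOT, the exportin for transfer RNA. NUP42 is in the table under its older symbol NUPL2, with 15 bone cancer pain and 20 control reads.

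A separate list held 45 other genes of the pore, of RNA export and of the nuclear envelope. Of these, 27 were listed and 20 had 10 or more reads, with 5 at least 2-fold higher, 4 lower and 11 between, beside 13.3% higher and 14.2% lower of all host genes with 10 or more reads. Whether the list differs from other genes was not tested. NDC1, which anchors the pore in the membrane, had 64 bone cancer pain and 15 control reads (4.50, 2.54 to 8.50), a ratio above that of any of the 32 members in the pore, carrier or RAN classes. GLE1, which acts in mRNA export at the cytoplasmic side, had 20 bone cancer pain and 55 control reads (0.383, 0.218 to 0.650). The lamin gene LMNA had 25 and 10 (2.64, 1.22 to 6.15). None of the 10 LMNA circRNAs was listed in both libraries, so its ratio compares different junctions. Of the 10 NDC1 circRNAs only 1 was listed in both. The other higher genes were POM121, which has a near-identical copy in the human genome, with 11 bone cancer pain and 3 control reads, SENP2 with 13 and 6, and SYNE2 with 11 and none listed. The other lower genes were NUTF2, the import factor of RAN, and SYNE1, with 4 bone cancer pain and 9 control reads each, and THOC5, with 10 control reads and no bone cancer pain reads listed. CSE1L, the exportin that returns importin alpha to the cytoplasm, had 36 bone cancer pain and 34 control reads (1.12, 0.679 to 1.84). The list as a whole was at 1.08 (0.939 to 1.24).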

How the data were processed

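CircRNA junctions were measured in 1 library per group. Per the labels' protocols, RNA was depleted of ribosomal RNA and digested with 16 units of RNase R, which degrades linear RNA, for 15 minutes at 37 °C, and libraries were strand-marked. The submitters' processing notes name CASAVA 1.8, BWA and the build rn6, with no role. Not given in the sources used here is how circRNAs were called.

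The values the authors deposited are headed TPM but were treated as RPM: above a placeholder of 0.001 all were whole multiples of 1 step per library, within 0.005 reads, whatever the circRNA's length. Reads are the values divided by that step. The placeholder was taken as 0. Of the table, 1 circRNA on chromosome Y was left out, though its reads count in the totals.

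Ratios are shares of the library totals with exact conditional binomial (Clopper-Pearson) 95% intervals; log2 ratios and calls used 0.5 added reads and a minimum of 10. PCR reads without molecular identifiers are not independent. The size rule was tested on simulated data. All members with 10 or more reads are named, with their main circRNAs; others were named after their values were seen. The members, classes and lists were chosen with earlier results of these data known. Analyses ran in Python 3.11.15 (scipy 1.17.1, pandas 2.3.3, numpy 2.4.6; figures with matplotlib 3.10.9). No sequence of these circRNAs was used here.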

Additional observations from a re-analysis of the deposited data

How the results depend on the processing

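With 1 library per group, no replicate could be left out. No paired analysis was possible because each group has 1 library. The ratio of the carrier sum was 0.857 and stood at 1.02 without XPO1, the other side of 1, because that gene holds most of the reads. Of the member host genes, 3 were at least 2-fold higher: 7 with a minimum of 5 reads and 6 at 1.5-fold. Against 4 lower, 2 had an interval that also left out 1. Of member circRNAs, 10 were higher and 10 lower: 19 and 18 with a minimum of 5 reads, 3 and 3 with a minimum of 20, 23 and 19 at 1.5-fold, and 6 and 6 with an interval that also left out 1. NUP133 turned to a log2 ratio of -0.41 with only circRNAs listed in both libraries. Under that setting the pore median was -0.33. The carrier median was also negative under 4 settings, -0.05 with the median of ratios, -0.11 with a minimum of 20 reads, -0.04 with circRNAs listed in both libraries and -0.15 with circBase identifiers only. Scaling by the median of ratios moved every log2 ratio by -0.08 and TMM by -0.01. Adding junctions that name other RNAs too, a setting chosen after seeing the data, put the pore sum at 0.971 and the carrier sum at 0.860. It also put 4 member host genes at least 2-fold higher, KPNA6 being the one added. Over the 32 named genes, 17 values changed sign under the settings tried. Scaling by the median of ratios put 5 member host genes at least 2-fold lower, NUP98 being the fifth.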
